A study of Homo sapiens with 8 samples.

Results

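The genes for mitochondrial ribosomal proteins were followed across 8 single-colour Illumina bead arrays. They were taken as the genes whose platform symbol is MRPL or MRPS followed by a number, with an optional trailing letter and no pseudogenes, and each was read from its brightest probe above background. The rule gave 76 genes of the 20042 genes named on the array, and all 76 were among the 12385 genes above background that entered the test. By where the protein sits, 50 belong to the large subunit and 26 to the small subunit, with MRPS18A and MRPS30 counted in the large one against their names.

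All samples were SUM159 trailblazer cells, an invasive subpopulation of the human triple-negative breast cancer line SUM159, and all carried a pLIX vector, a lentiviral vector whose insert is switched on by doxycycline. The vector was empty (pLIX, titled SUM159T-WT) or held ΔNP63α with a V5 tag (ΔNP63α-V5_pLIX), an isoform of the transcription factor p63 of basal epithelium. Each line was kept without doxycycline or with 1 ug/ml for 5 days, which made 4 groups of 2 arrays. In the ΔNP63α line doxycycline switches on the transgene, so the agent and the transgene cannot be told apart within that line, whereas in the empty-vector line the agent acts without an insert. The labels do not say whether a line was 1 clone or whether replicates were separate cultures, so the spread behind each p-value is that between arrays and may be technical alone.

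Mitochondrial ribosomes translate the few proteins encoded in mitochondrial DNA, all of them subunits of the respiratory chain and ATP synthase. Their RNAs come from mitochondrial DNA, while every one of their proteins is encoded in the nucleus, made in the cytosol and imported. Some of these proteins have counterparts in the bacterial ribosome and others exist only in mitochondria. Doxycycline is a tetracycline, which binds the small subunit of bacterial ribosomes and can also block mitochondrial translation, so the comparison asks whether the RNAs for the ribosome's proteins differed with the agent in either line.

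The arrays had been brought to a common distribution by the authors, as judged from the values, and Spearman correlations over kept probes were 0.970 to 0.975 within groups and 0.954 to 0.975 between groups. Over the 76 genes the correlations were 0.980 to 0.994 within groups and 0.962 to 0.990 between groups. Of the 4 genes listed for the mesenchymal state of this line, VIM and CD44 lay at intensities of 12611 to 17134.8 and 3483.7 to 4883.1. The epithelial genes CDH1, EPCAM, ESR1 and KRT19, the blood genes PTPRC and CD3E and the endothelial genes PECAM1 and VWF were not above the background level of 114.3 on both arrays of any group. EPCAM (up to 122.8), ESR1 (up to 121.2) and CD3E (up to 116) passed it on at least 1 array. FN1 (120.7 to 262.7), GATA3 (123.6 to 143.0), ZEB1 (111.3 to 133.5) and HBB (106.8 to 117.8) lay nearer to that level. 0 probes carried the symbol TP63, so the level of the transgene was not analysed here, and 0 named probes covered genes of mitochondrial DNA.

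Every one of the 76 genes was above background on all 8 arrays, with single-array intensities from 130.9 to 9608.3 on the deposited linear scale. By mean intensity the 3 brightest probes were those of MRPS12, MRPL36 and MRPL33, and the 3 dimmest those of MRPS14, MRPS25 and MRPL49. Probes bind with different strength, so this order describes probe brightness and not RNA abundance. The median log2 intensity over the 76 genes was 10.17 and 10.05 on the 2 empty-vector arrays without doxycycline and 10.11 and 10.10 on those with it. In the ΔNP63α line it was 10.23 and 10.20 without doxycycline and 10.05 and 10.15 with it. The values overlapped in the empty-vector line and were lower on both induced arrays of the ΔNP63α line, with a pooled SD between replicate arrays of 0.0535. In bulk RNA, a smaller share of cells with a transcript and less of it per cell cannot be told apart.

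In the empty-vector line no mitochondrial ribosomal protein gene passed the test for doxycycline: 0 of 76 had an adjusted p under 0.05 in limma, beside 0% of the 12385 genes tested. At an unadjusted p under 0.05 there were 6, of which 4 were higher and 2 lower, beside 4.38% of all genes (2.12% higher and 2.27% lower). The log2 changes ran from -0.41 to 0.42 with a median of -0.04, against a median of -0.00 over all genes tested, and 31 estimates were above 0 and 45 below, where 48.9% of all genes were above 0. The arrays with doxycycline lay above both arrays without it for 10 members and below both for 19, 29 in all, beside 16.2%, 17.9% and 34.2% of all genes. The 95% interval of every one of the 76 changes lay inside a 2-fold change in either direction, as did that of 99.9% of all genes. For 73 of the 76 it lay inside 1.5-fold, against 95.9% of all genes, and the exceptions were MRPL39, MRPL47 and MRPL57. The widest bounds were 1.63-fold lower and 1.62-fold higher. These intervals are for single genes, not adjusted for their number. In log2 values simulated for this comparison over 12385 genes, 100 genes were given a log2 change of 0.5 and 100 a change of 1. Of these, 64% and 100% were recovered, with 7 false calls. The adjusted p depends on how many genes change, so these shares do not hold where fewer genes do. Recovery of a change in a single gene or in the 76 members alone was not simulated.

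**Figure D1:**
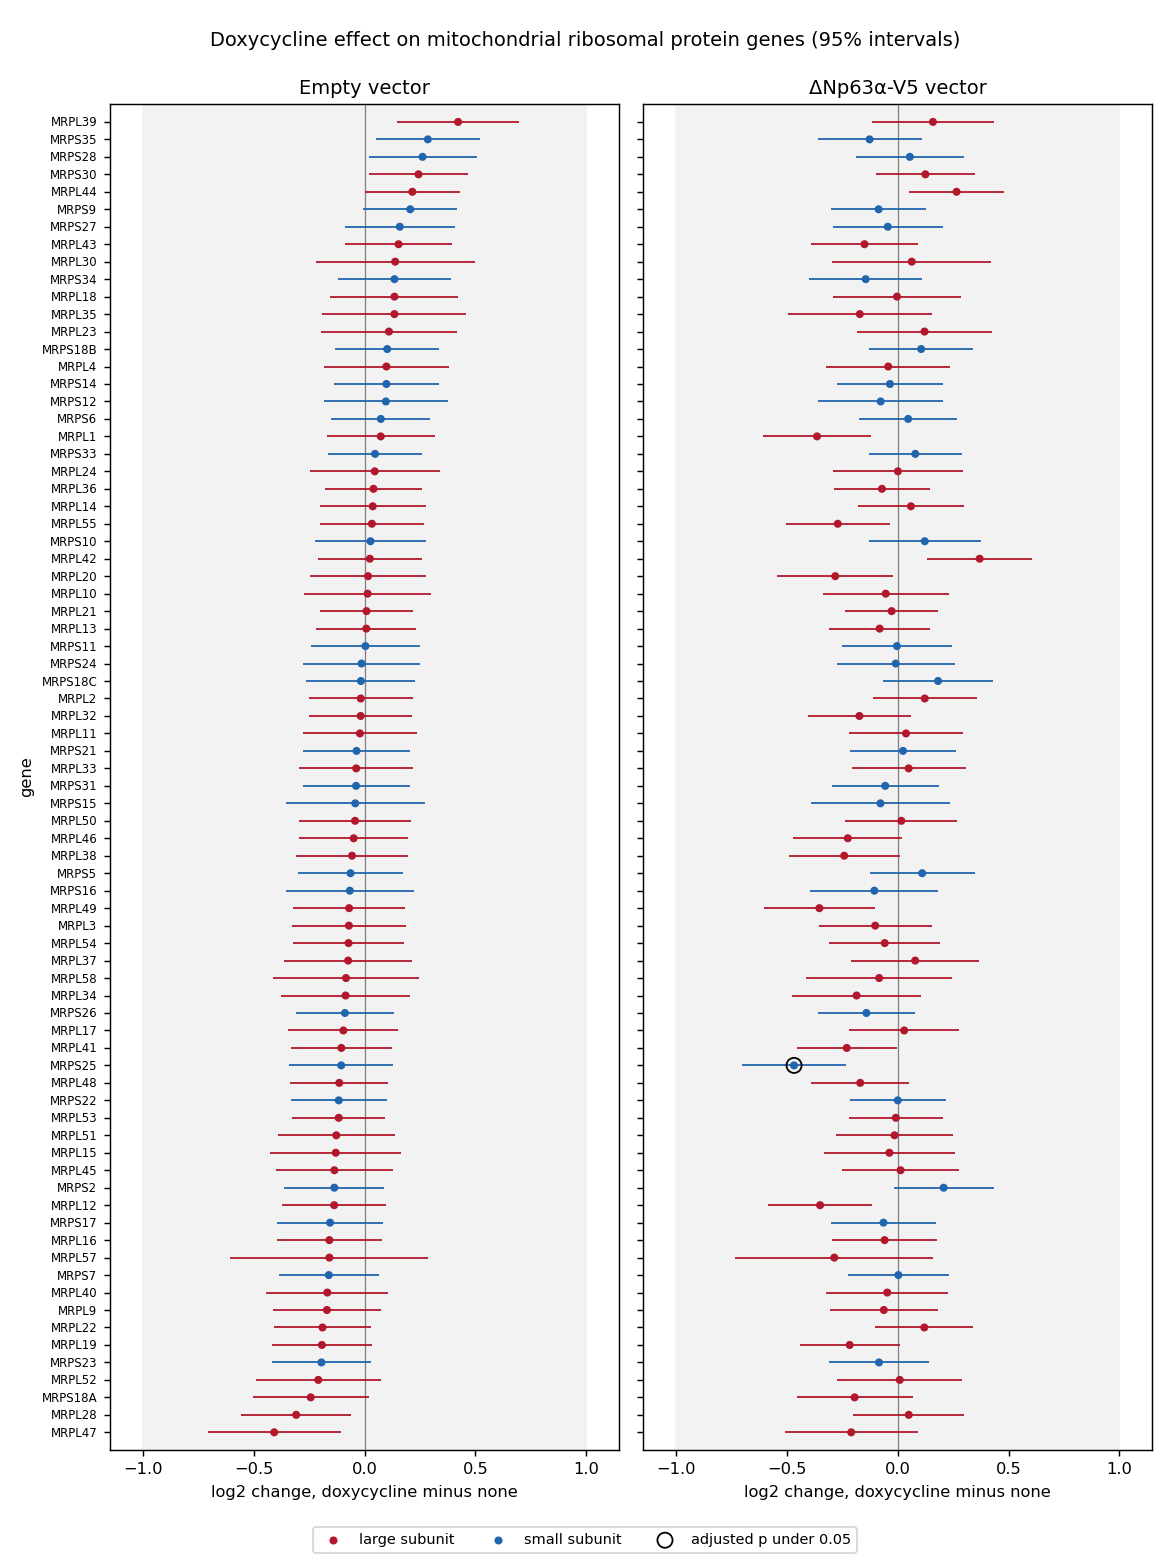
Log2 change with doxycycline in the empty-vector line and the ΔNP63α line for each of the 76 mitochondrial ribosomal protein genes, with 95% intervals from limma; red marks the large subunit and blue the small subunit, and a ring marks an adjusted p under 0.05. The points lie between -0.41 and 0.42 in the first panel and between -0.47 and 0.37 in the second, where MRPS25 alone is ringed.

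The members farthest from 0 in the empty-vector line were named by a rule of size. MRPL39, a mitochondria-specific protein that resembles threonyl-tRNA synthetase, lay at log2 intensities of 9.69 and 9.84 without doxycycline and 10.13 and 10.24 with it. Its arrays did not overlap, and the change was 0.42 (SE 0.13), with an unadjusted p of 0.0062 and a limma adjusted p of 0.990. MRPL47, the counterpart of bacterial L29, read 8.86 and 8.83 without and 8.64 and 8.24 with doxycycline, a change of -0.41 (SE 0.14, limma adjusted p 0.990). A second probe of MRPL47 gave -0.04 (SE 0.20), so the 2 probes of that gene differed. MRPL28 (-0.31), MRPS18A (-0.24), MRPS35 (0.29) and MRPS28 (0.26) were the other members at the ends of the range, all with a limma adjusted p of 0.990.

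In the ΔNP63α line 1 of the 76 genes passed the test, MRPS25, which was lower with doxycycline, while 2.73% of all genes tested were called, 1.43% higher and 1.30% lower. MRPS25 encodes a small-subunit protein found only in mitochondria. On the 2 arrays of the ΔNP63α line without doxycycline its log2 intensity was 7.55 and 7.50, and on the 2 with it 6.98 and 7.13. In the empty-vector line it was 7.84 and 7.66 without doxycycline and 7.64 and 7.65 with it. Both induced arrays of the ΔNP63α line lay below all 6 other arrays. The change in the ΔNP63α line was -0.47 (SE 0.11, 95% interval -0.70 to -0.23), a 1.38-fold lower level with a limma adjusted p of 0.0417, while in the empty-vector line it was -0.11 (limma adjusted p 0.990). The difference between those changes was -0.36 with an adjusted p of 0.524 for the limma interaction, so the lines were not shown to differ. The call was lost under 12 of 18 alternatives, among them all 8 that left out 1 array, where the change ranged from -0.55 to -0.39 and the adjusted p from 0.0558 to 0.225. MRPS25 is also one of the 3 dimmest members and has 1 probe.

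The 250 bases before the start of MRPS25 (chr3:15065316-15065565, minus strand, RefSeq on GRCh38.p14) are shown because this gene carried the call. Capitals in this and the later promoters mark letters of the NRF1, ETS, YY1 or CRE motifs described further on, and this one holds none.
MRPS25: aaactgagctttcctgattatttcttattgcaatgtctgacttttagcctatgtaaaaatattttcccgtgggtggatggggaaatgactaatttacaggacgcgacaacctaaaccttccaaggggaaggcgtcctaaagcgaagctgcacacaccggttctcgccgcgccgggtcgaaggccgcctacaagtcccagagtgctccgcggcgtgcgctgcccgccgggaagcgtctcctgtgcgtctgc

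Over all members in the ΔNP63α line, 9 had an unadjusted p under 0.05 (2 higher, 7 lower), beside 13.6% of all genes (6.57% higher and 7.0% lower). The log2 changes ran from -0.47 to 0.37 with a median of -0.04, against -0.01 over all genes, and 28 estimates were above 0 and 48 below, where 47.8% of all genes were above 0. The groups did not overlap for 32 members, 10 of them higher and 22 lower, beside 43.2% of all genes, 20.3% higher and 22.9% lower. All 76 intervals lay inside 2-fold, as did 98.5% over all genes, and 70 lay inside 1.5-fold, against 89.2%. MRPL1, the counterpart of the bacterial L1 stalk protein beside the exit of spent tRNAs, read 9.87 and 10.11 without doxycycline and 9.57 and 9.67 with it. The groups did not overlap, but the change of -0.36 (SE 0.11) had a limma adjusted p of 0.134. MRPL12, the stalk protein that contacts translation factors, read 10.77 and 10.87 against 10.51 and 10.43, a change of -0.35 (SE 0.11, limma adjusted p 0.135). MRPL49, mitochondria-specific, read 7.91 and 8.16 against 7.67 and 7.69, a change of -0.35 (SE 0.11, limma adjusted p 0.161).

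At the upper end in the ΔNP63α line stood MRPL42, another mitochondria-specific protein, at 10.26 and 10.22 without doxycycline and 10.63 and 10.58 with it. The change was 0.37 (SE 0.11, limma adjusted p 0.116), whereas its second probe gave 0.04 (SE 0.10). MRPL44, whose fold is that of a ribonuclease III, read 8.54 and 8.52 against 8.83 and 8.77, a change of 0.27 (SE 0.10, limma adjusted p 0.236). MRPS2, the counterpart of bacterial S2, changed by 0.21 (SE 0.10, limma adjusted p 0.420). None of these members passed the threshold, although the arrays of each did not overlap.

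The lines share no arrays, so their doxycycline effects could be set beside each other. The sign was the same in both lines for 43 of 76 genes, or 56.6%, and for 52.7% of all genes tested, with 13 members higher in both, 30 lower in both and 33 opposite. Across the 76 genes Pearson's r between the changes was 0.249 and Spearman's rho 0.231, against 0.0714 and 0.0918 across all genes. These are descriptions across genes measured on the same arrays, and genes are not independent replicates. For 3 members the arrays with doxycycline lay above those without it in both lines, namely MRPL44, MRPS30 and MRPS33, and 3.98% of all genes did so. For 8 members they lay below in both, namely MRPL12, MRPL19, MRPL41, MRPL47, MRPL48, MRPS18A, MRPS25 and MRPS26, or 10.5%, beside 4.73% of all genes. Of those 11 genes only MRPS25 passed the test in a line, and only in the ΔNP63α line.

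**Figure D2:**
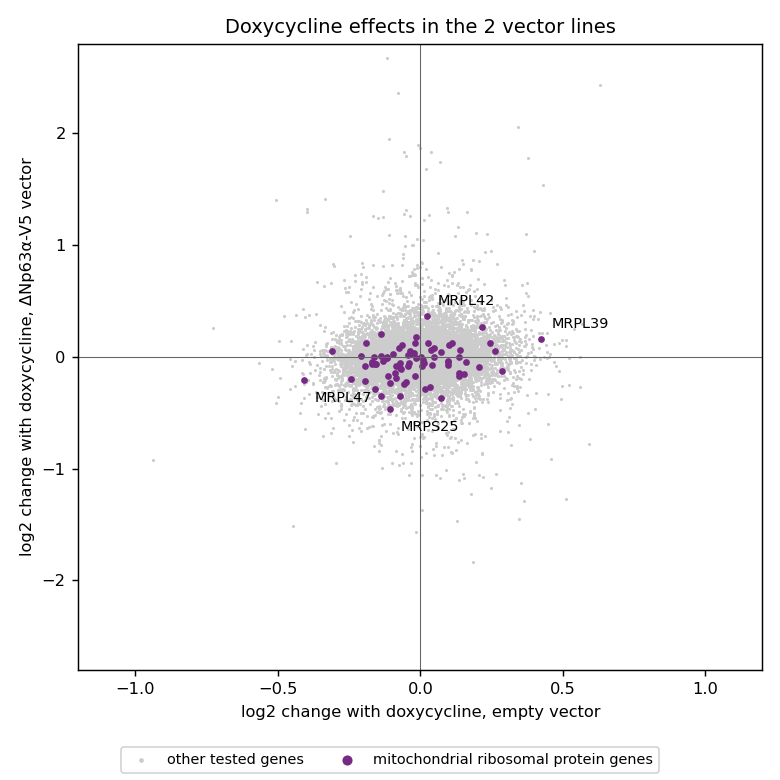
Log2 change with doxycycline in the empty-vector line (horizontal axis) against the ΔNP63α line (vertical axis) for the 76 mitochondrial ribosomal protein genes (purple) and all other tested genes (grey). The members sit within 0.5 of 0 on both axes, and 30 of the 76 fall at the lower left, where both changes are negative.

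With the lines averaged, 0 of 76 genes passed limma's test, beside 0.840% of all genes, and 11 had an unadjusted p under 0.05 (4 higher, 7 lower), beside 11.1% (5.32% higher and 5.81% lower). Of the 76 estimates 28 were above 0, or 36.8%, beside 48.3% of all genes. The smallest adjusted p was 0.132, that of MRPS25 at -0.29. MRPL47 (-0.31), MRPL12 (-0.24), MRPL39 (0.29), MRPL44 (0.24) and MRPL42 (0.20) completed the ends of the range, with limma adjusted p-values from 0.180 to 0.342. All 76 intervals lay inside 1.5-fold, against 98.4% over all genes. The test of the difference between the lines, the limma interaction, called 0 of 76 genes, beside 0.727% of all genes, and 6 had an unadjusted p under 0.05, beside 8.51%. MRPL1 was lowest in that test (-0.44, limma adjusted p 0.404), followed by MRPS35 (-0.41, limma adjusted p 0.423). MRPL28 (0.36), MRPL42 (0.35) and MRPS2 (0.34) were highest. Intervals for this difference were wider, with 58 of 76 inside 1.5-fold and all 76 inside 2-fold, against 68.8% and 96.9% over all genes.

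By subunit the medians lay close together. In each line the median change with doxycycline was -0.05 over the 50 large-subunit genes and -0.02 over the 26 small-subunit genes. Averaged over the lines, 15 of 50 large-subunit estimates and 13 of 26 small-subunit estimates were above 0, with medians of -0.06 and 0.00. By origin, the 44 genes with a bacterial counterpart had medians of -0.02 in the empty-vector line and -0.03 in the ΔNP63α line, and the 28 mitochondria-specific genes -0.07 and -0.05. MRPL55, MRPL58, MRPS18A and MRPS18B, 4 genes, were not classed by origin. No difference between these classes was tested.

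MRPL12 and MRPL44, described above at the ends of the range in the ΔNP63α line, were also among the members chosen for their roles, and in the empty-vector line they changed by -0.14 (SE 0.11) and 0.22 (SE 0.10). MRPS12, the counterpart of bacterial S12 at the decoding centre, read 12.11 and 12.44 without doxycycline and 12.35 and 12.38 with it in the empty-vector line, and 12.29 and 12.38 against 12.14 and 12.37 in the ΔNP63α line. The groups overlapped in both lines, with changes of 0.10 (SE 0.13) and -0.08 (SE 0.13). The first was positive on the main probe only. In the empty-vector line the further probes of MRPS12 gave -0.13 (the most variable probe), -0.03 and -0.08. MRPS7, in the head of the small subunit, changed by -0.16 and 0.00 (SE 0.10 in each), and MRPL3, close to the peptidyl transferase centre, by -0.07 and -0.10 (SE 0.12 in each). MRPS30, which is named for the small subunit but sits in the large one, read 11.03 and 10.95 against 11.30 and 11.17 in the empty-vector line, a change of 0.24 (SE 0.10, limma adjusted p 0.990). In the ΔNP63α line it changed by 0.12 (SE 0.10).

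The S18 proteins form a family of 3 paralogs in human mitochondria. By origin MRPS18C was classed here with the bacterial counterparts, while MRPS18A and MRPS18B were not classed. MRPS18A, which sits in the large subunit, changed by -0.24 in the empty-vector line and -0.20 in the ΔNP63α line (SE 0.12 in each). MRPS18B changed by 0.10 and 0.11 (SE 0.11 in each). MRPS18C changed by -0.02 and 0.18 (SE 0.11 in each). None of the 3 passed limma's test in either line, and the sign for MRPS18B turned (-0.07) on its more variable probe in the empty-vector line.

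Between the lines without induction no member was called. Without doxycycline 0 of 76 genes passed the test between the ΔNP63α line and the empty-vector line in limma, beside 0.0484% of all genes, and 9 had an unadjusted p under 0.05 (8 higher, 1 lower), beside 10% (5.0% higher and 5.01% lower). The median difference was 0.07, against 0.01 over all genes, with 47 estimates above 0 and 29 below, where 51.8% of all genes were above 0. The lines did not overlap for 43 members, 27 higher and 16 lower in the ΔNP63α line, beside 42.3% of all genes, 22.3% higher and 20.1% lower. It was 0.08 over the large subunit, with 34 of 50 above 0, and 0.00 over the small subunit. MRPL55, not classed by origin, read 8.97 and 8.99 in the ΔNP63α line and 8.46 and 8.67 in the empty-vector line, a difference of 0.42 (SE 0.11, limma adjusted p 0.261). MRPL41 (0.34) and MRPL38 (0.32) followed, with limma adjusted p-values of 0.289 and 0.390. At the other end were MRPL30 (-0.34), MRPL58 (-0.33), a peptidyl-tRNA hydrolase that frees stalled ribosomes, and MRPS5 (-0.24).

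With doxycycline in both lines, 5 of 76 genes differed between the ΔNP63α line and the empty-vector line: MRPL28 and MRPL53 were higher and MRPS25, MRPL1 and MRPL32 lower. Among all genes tested 4.64% were called higher and 5.09% lower, 9.74% in all, so the members' 2 higher and 3 lower calls were near the background. At an unadjusted p under 0.05 there were 22 (15 higher, 7 lower), beside 23.7% (12% higher and 11.7% lower), and the median difference was 0.00 with 38 estimates on each side of 0, where 50.4% of all genes were above 0. The lines did not overlap for 49 members, 29 higher and 20 lower, beside 52.3% of all genes, 26.9% higher and 25.4% lower. This comparison shares its induced arrays with the doxycycline comparison in the ΔNP63α line, so the values of a gene in the 2 comparisons are not independent.

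MRPS25 differed most among the members, by -0.59 (SE 0.11, limma adjusted p 0.00657), 1.51-fold lower in the induced ΔNP63α line, and this call was kept under all 18 alternatives, where it ranged from -0.75 to -0.46. Without doxycycline MRPS25 read 7.55 and 7.50 in the ΔNP63α line against 7.84 and 7.66 in the empty-vector line. It was thus lower on every array of the ΔNP63α line, and part of the difference was present without induction. MRPL28, the counterpart of bacterial L28, read 8.22 and 8.27 in the induced ΔNP63α line and 7.83 and 7.65 in the empty-vector line with doxycycline. The difference was 0.50 (SE 0.11, limma adjusted p 0.0183). In the lines without doxycycline it read 8.09 and 8.31 against 8.0 and 8.10, which overlapped. Without the second array of the empty-vector line with doxycycline the difference was 0.42 with a limma adjusted p of 0.142, and without the second array of the induced ΔNP63α line 0.48 with a limma adjusted p of 0.104. MRPL53, a mitochondria-specific protein, read 9.25 and 9.24 against 8.90 and 8.90, and without doxycycline 9.28 and 9.23 against 8.98 and 9.05, so it was higher on every array of the ΔNP63α line. Its difference with doxycycline was 0.35 (SE 0.10, limma adjusted p 0.0427).

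MRPL1 read 9.57 and 9.67 in the induced ΔNP63α line and 10.07 and 9.95 in the empty-vector line with doxycycline, a difference of -0.39 (SE 0.11, limma adjusted p 0.0497). MRPL32, the counterpart of bacterial L32, is known for its cleavage by the m-AAA protease before assembly. It read 10.05 and 10.04 against 10.38 and 10.46, a difference of -0.37 (SE 0.11, limma adjusted p 0.0467), and 10.32 and 10.12 against 10.45 and 10.42 without doxycycline. It was thus lower on every array of the ΔNP63α line than on any empty-vector array. The calls for MRPL1, MRPL32 and MRPL53 were lost under 12, 11 and 12 of the 18 alternatives, with adjusted p-values of up to 0.186, 0.218 and 0.163. MRPL51, with a difference of 0.40 and a limma adjusted p of 0.0582, MRPL47 (0.45, 0.0633) and MRPL44 (0.31, 0.0716) lay just outside the threshold. All 5 called members have 1 probe each.

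**Figure D3:**
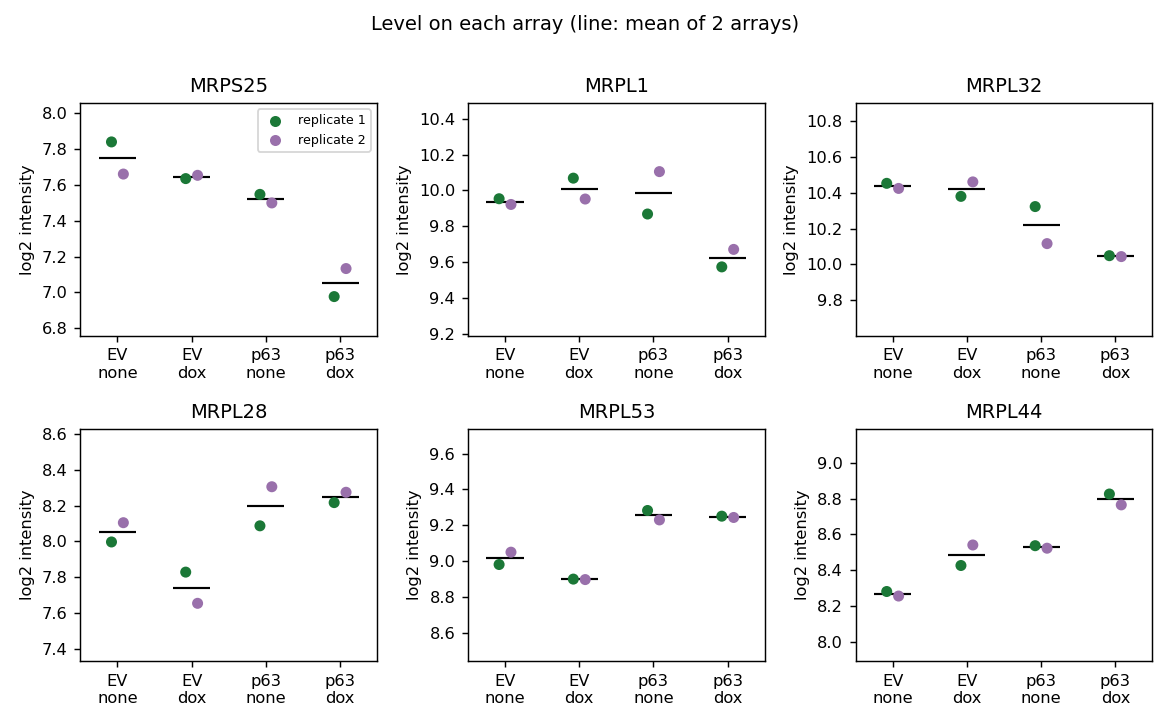
Log2 intensity on each array for the 5 called members MRPS25, MRPL1, MRPL32, MRPL28 and MRPL53 and for MRPL44; columns are the empty-vector line (EV) and the ΔNP63α line (p63) without and with doxycycline, points are the 2 replicates and lines their mean. MRPS25 and MRPL1 are lowest in the induced ΔNP63α group, MRPL53 is higher in both groups of that line, and MRPL44 is highest in the induced group at 8.83 and 8.77.

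The promoters of the 4 other called genes are printed for comparison with that of MRPS25, as the 250 bases before each start on GRCh38.p14: MRPL1 (chr4:77862580-77862829, plus strand), MRPL28 (chr16:370539-370788, minus), MRPL32 (chr7:42932126-42932375, plus) and MRPL53 (chr2:74472681-74472930, minus). In MRPL32 the capitals mark the YY1 letters on the opposite strand, 215 to 224 bases before the start, and in MRPL53 the ETS letters, 66 to 72 bases before it. The 250 bases before the starts of MRPL1 and MRPL28 hold none of these letters, while the 50 bases after the start of MRPL28 hold the ETS letters.
MRPL1: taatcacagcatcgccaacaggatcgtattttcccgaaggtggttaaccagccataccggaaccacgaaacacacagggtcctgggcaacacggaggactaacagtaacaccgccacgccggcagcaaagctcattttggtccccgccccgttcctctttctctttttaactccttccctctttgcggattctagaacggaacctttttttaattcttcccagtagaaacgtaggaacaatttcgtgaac
MRPL28: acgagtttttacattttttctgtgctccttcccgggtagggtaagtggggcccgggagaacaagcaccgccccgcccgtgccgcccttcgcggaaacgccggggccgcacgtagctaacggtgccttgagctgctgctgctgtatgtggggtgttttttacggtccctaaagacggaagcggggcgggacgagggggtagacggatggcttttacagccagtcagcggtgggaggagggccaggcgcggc
MRPL32: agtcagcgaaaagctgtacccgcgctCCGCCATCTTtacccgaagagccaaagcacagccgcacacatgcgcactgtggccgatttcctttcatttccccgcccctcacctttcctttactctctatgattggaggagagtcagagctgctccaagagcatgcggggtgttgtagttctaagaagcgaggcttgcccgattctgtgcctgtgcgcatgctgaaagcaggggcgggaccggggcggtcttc
MRPL53: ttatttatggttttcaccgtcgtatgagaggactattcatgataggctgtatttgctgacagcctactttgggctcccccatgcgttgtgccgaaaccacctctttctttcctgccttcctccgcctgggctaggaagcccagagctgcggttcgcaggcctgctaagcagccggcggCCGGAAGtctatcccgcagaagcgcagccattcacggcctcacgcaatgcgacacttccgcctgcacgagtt

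The promoters of the family were described as a group from the RefSeq windows of 250 bases before to 50 bases after the start, which were given for 68 of the 76 genes. Both strands were searched, letters of different motifs may overlap, and a match is a description of letters and not a bound site. The shares are set beside those over all protein-coding windows, whether or not the gene was above background on these arrays. All members were above it, and shares over genes above background alone were not computed. The 8 genes with no window were MRPL2, MRPL10, MRPL13, MRPL15, MRPL21, MRPL23, MRPL35 and MRPS28. The letters CCGGAAG of ETS factors, the family that holds GABP, a known regulator of nuclear genes for mitochondrial proteins, occurred in 28 of 68 windows (41.2%) and in 14.2% of the 15843 protein-coding windows. The YY1 letters, the capitals of the windows printed further on, occurred in 13 (19.1%), against 1.93%. One or both were present in 37 (54.4%), against 15.7%. The CRE letters TGACGTCA occurred in 0 windows (against 2.59%). The letters of NRF1, another regulator of nuclear genes for mitochondrial proteins, were found in 1 window (1.47%, against 1.75%), that of MRPL17, and are its capitals here.
MRPL17: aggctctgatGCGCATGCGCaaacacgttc

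Other motifs lay closer to or below the share over all windows. GGGCGG, read by SP factors, occurred in 42 windows (61.8%, against 58.5%), CCAAT in 19 (27.9%, against 36.4%) and TATAAA in 2 (2.94%, against 9.63%). The amino acid response letters TGATGNAA occurred in 1 window (1.47%, against 2.53%), and the p63 half-site in 4 (5.88%, against 5.93%). Those 4 were the windows of MRPL19, MRPL32, MRPL47 and MRPS18B, of which only MRPL32 was among the called members. The half-site is not in capitals in the promoter printed for MRPL32. The median GC content of the windows was 60.3%, against 62.7%. A protein-coding neighbour on the opposite strand started within 1000 bases for 17 of the 68 genes (25%), against 10.3% over all windows. MRPS11 and MRPL46 are such a pair, with 320 bases between their starts, and MRPS12 faces SARS2, the mitochondrial seryl-tRNA synthetase, at 181 bases. MRPL32 faces PSMA2, a proteasome subunit, at 202 bases.

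**Figure D4:**
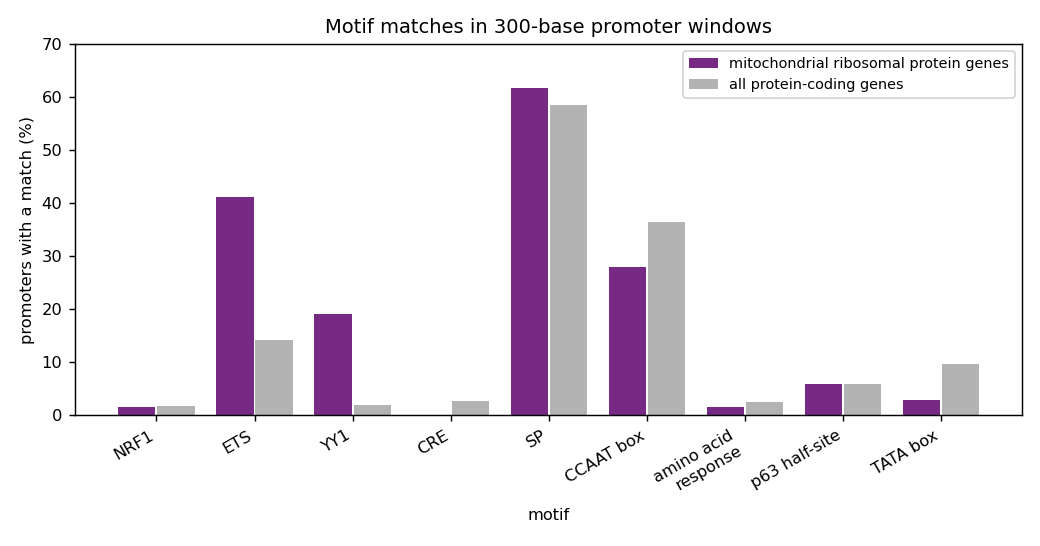
Share of promoter windows (%) with at least 1 match to each of 9 motifs, for 68 mitochondrial ribosomal protein genes (purple) and all 15843 protein-coding genes (grey). The purple bars for ETS (41.2%) and YY1 (19.1%) stand above the grey ones (14.2% and 1.93%), and that for the p63 half-site (5.88%) is level with it.

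The YY1 windows are printed because, of the 9 motifs, this one had the highest ratio of the family's share to that over all promoters. Each shows 30 bases with the motif in capitals, read on the strand that carries the motif, on GRCh38.p14. In 10 of the windows the motif lay on the gene's own strand, and in 9 of these after the start. The YY1 letters contain ATG, the letters of a start codon. Whether the matches after the start coincide with the gene's own start codon was not examined, so the share may partly reflect coding letters. In MRPL32 and MRPL36 it lay before the start on the opposite strand, and the window of MRPL22 was too near the end to be shown.
MRPL32: tcttcgggtaAAGATGGCGGagcgcgggta
MRPL36: gccaggaaggAAGATGGCGGcggggggggg
MRPL38: ggccggagggAAGATGGCGGcgccctggtg
MRPL42: ggattgaaacAAGATGGCGGgttcgtggtg
MRPL46: gggagaacgaAAGATGGCGGcgcccgtaag
MRPL50: gatctcatcgAAGATGGCGGcgcgatctgt
MRPL52: acgatgacccAAGATGGCGGagccgtgatt
MRPS10: cgggaccggcAAGATGGCGGcgcggacagc
MRPS18A: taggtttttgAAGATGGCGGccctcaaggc
MRPS18B: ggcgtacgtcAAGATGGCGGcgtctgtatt
MRPS24: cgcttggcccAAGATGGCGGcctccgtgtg
MRPS30: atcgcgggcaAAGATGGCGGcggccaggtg

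Related genes of mitochondrial translation and its stress response were read in the same fit, 122 tested genes in 7 lists. In the empty-vector line 0 of 122 passed limma's test for doxycycline, beside 0% of all genes tested, and 5 had an unadjusted p under 0.05, beside 4.38%. In the ΔNP63α line 2 passed, beside 2.73%, and 13 had an unadjusted p under 0.05, beside 13.6%. With the lines averaged 1 passed, beside 0.840%, and 10 had an unadjusted p under 0.05, beside 11.1%. These counts were near or below the shares over all genes. In the empty-vector line and the ΔNP63α line the median changes were -0.05 and -0.00 for 3 other mitoribosomal proteins, -0.07 and -0.09 for 15 translation factors, and 0.01 and 0.03 for 21 genes listed as mitochondrial aminoacyl-tRNA synthetases. They were -0.02 and 0.04 for 29 assembly factors, -0.06 and -0.03 for 18 genes of mitochondrial transcription and RNA stability, -0.00 and -0.03 for 23 ATF4-linked stress genes, and -0.02 and 0.01 for 13 chaperones and proteases. The synthetase list includes GATB, GATC and QRSL1, subunits of an amidotransferase and not synthetases. It also includes GARS1 and KARS1, whose enzymes serve the cytosol as well.

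Both calls in the ΔNP63α line were ATF4-linked genes, and they moved in opposite directions. ATF5, a transcription factor of the mitochondrial unfolded protein response, read 9.32 and 9.37 without doxycycline and 8.62 and 8.76 with it in that line. In the empty-vector line it read 9.01 and 9.10 against 8.78 and 8.85, so the arrays with doxycycline lay lower in both lines. Averaged over the lines the change was -0.45 (SE 0.07, limma adjusted p 0.0178), with -0.24 (SE 0.10, limma adjusted p 0.990) in the empty-vector line and -0.65 in the ΔNP63α line. The averaged call was lost in 6 of the 8 fits without 1 array, with adjusted p-values of up to 0.131. SLC7A11, the cystine transporter, was higher in the ΔNP63α line (0.61, SE 0.13, limma adjusted p 0.0330) and read -0.12 (SE 0.13) in the empty-vector line. Its call was lost under 7 of 18 alternatives, 5 of them fits without 1 array; over all 8 such fits the change ranged from 0.42 to 0.80 and the adjusted p reached 0.228. ATF4 itself changed by 0.02 in each line (SE 0.10), and DDIT3 by -0.02 and 0.17.

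Between the lines with doxycycline 7 of the 122 related genes were called, beside 9.74% of all genes, and 26 had an unadjusted p under 0.05, beside 23.7%, so the related genes were called no more often than all genes. GUF1, a translation elongation GTPase (0.48, limma adjusted p 0.0146), POLRMT, the mitochondrial RNA polymerase (0.36, limma adjusted p 0.0488), and MPV17L2, an assembly factor (0.36, limma adjusted p 0.0436), were higher in the ΔNP63α line. The glutamyl- and seryl-tRNA synthetases EARS2 (-0.53, limma adjusted p 0.0135) and SARS2 (-0.53, limma adjusted p 0.0453) were lower. DNAJA3, a mitochondrial chaperone (-0.54, limma adjusted p 0.0135), and CEBPG, a partner of ATF4 (-0.46, limma adjusted p 0.0322), were also lower. Of 18 alternatives, 13 lost the call of POLRMT, 11 that of MPV17L2, 9 that of SARS2, 6 that of CEBPG, 3 each those of GUF1 and DNAJA3, and 2 that of EARS2. The calls of POLRMT and MPV17L2 were lost in all 8 fits without 1 array. Without doxycycline 0 of the 122 were called by limma, beside 0.0484% of all genes, and 17 had an unadjusted p under 0.05, beside 10%.

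**Figure D5:**
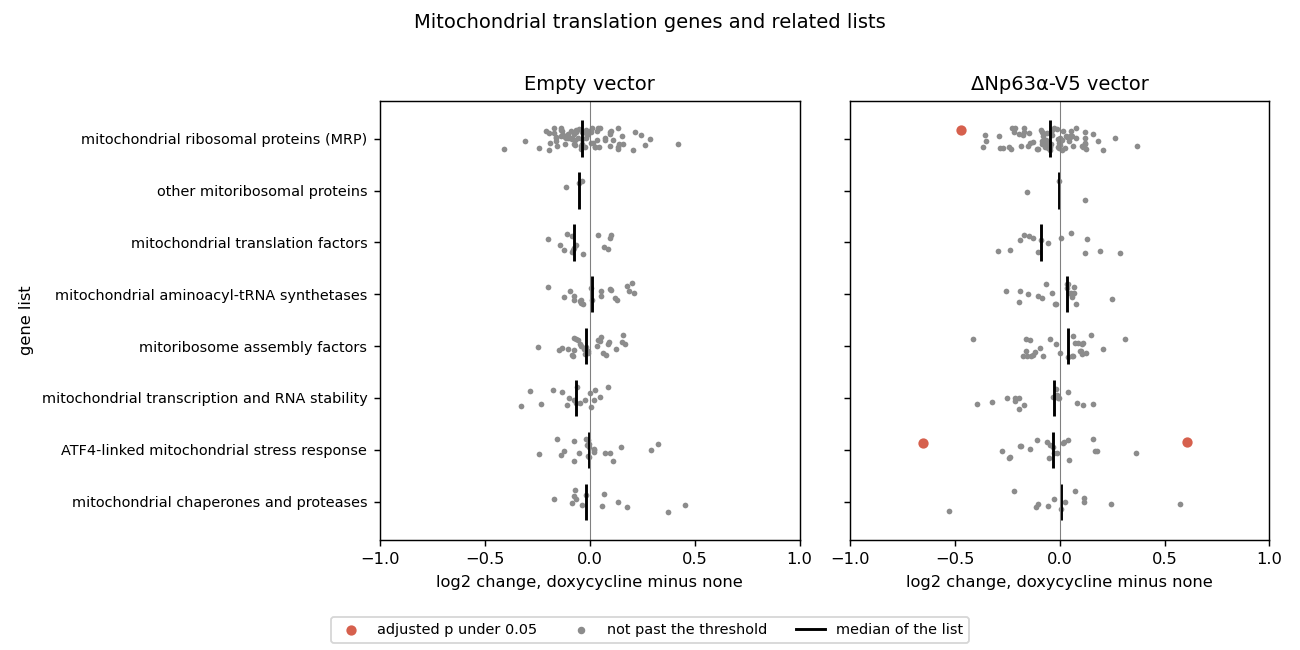
Log2 change with doxycycline for the 76 mitochondrial ribosomal protein genes and the 7 related lists in the empty-vector line and the ΔNP63α line; points are genes, black lines list medians, and red an adjusted p under 0.05. All list medians lie between -0.09 and 0.04, and red points appear only in the ΔNP63α line, for MRPS25, ATF5 and SLC7A11.

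A further 30 probes above background, of 24 of the 76 genes, gave a second reading. Their change with doxycycline had the sign of the main probe for 13 of 30 in the empty-vector line and 21 of 30 in the ΔNP63α line, with a median gap between probes of 0.14 and 0.10. For the lines compared with doxycycline 19 of 30 had the same sign, with a median gap of 0.13. These median gaps are about the size of the median SE of a member's change, 0.113. The largest gap for doxycycline was 0.37 in each line. In the ΔNP63α line the further probes of MRPL35, picked with values in view, gave -0.42 (SE 0.12) and -0.35 (SE 0.13). Its main probe gave -0.17 there.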

How the data were processed

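Total RNA was turned into biotin-labelled cRNA and hybridised to 8 Illumina bead arrays of 1 colour, per the labels' protocols. The authors deposited linear intensities for 47304 probes. For their software and normalisation, nothing is stated in the labels. By their values they were quantile normalised without background subtraction (median 113.5 on each array, sorted values within 0.175 of their mean). A further deposited table was not used because its 16 columns of per-sample values match no label, so the detection p-values planned for background correction and filtering were replaced by the fallback of the plan.

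Intensities were corrected by normexp with an offset of 50 in limma 3.58.1 (R 4.3.3) and put on the log2 scale, on which changes of dim probes are understated. Probes over 114.3 (the mode, 106.9, plus 1.645 times 4.52, the SD of values below it) on both arrays of at least 1 group were kept, 23086 in all. Platform annotation gave 30105 probes 1 symbol, 8 several and 17191 none. The brightest kept probe per gene gave 12385 genes. limma fitted 1 mean per group over all 8 arrays (4 residual and 7.48 prior degrees of freedom), with two-sided eBayes tests in 6 comparisons and Benjamini-Hochberg adjustment over the 12385 genes at 0.05. The number of arrays limits the precision, and the median SE of a log2 difference was 0.116. Tests were checked on simulated data. Alternatives were the offset, no background correction, the filters, the probe per gene, centring, the arrays fitted, eBayes options, a replicate block and leaving out each array.

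Genes named in the text were those past the threshold, the 3 highest and 3 lowest changes per comparison, the 3 brightest and dimmest, and 9 chosen for their roles; of the related lists, those called. Genes just outside the threshold, those outside 1.5-fold, those whose arrays did not overlap in both lines, promoter genes, ATF4 and DDIT3 were chosen with values in view. The members, lists and tests were chosen with earlier results of these data known. No list was tested as a set.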

Additional observations from a re-analysis of the deposited data

How the results depend on the processing

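The medians of the mitochondrial ribosomal protein genes moved by less than the SD between replicate arrays under every alternative run: -0.05 to -0.02 for doxycycline in the empty-vector line, -0.06 to -0.01 in the ΔNP63α line and 0.04 to 0.07 between the lines without doxycycline. The count called stayed at 0 in limma under all alternatives for doxycycline in the empty-vector line (2 to 11 at an unadjusted p under 0.05), for the averaged effect (6 to 14), for the interaction (1 to 10) and between the lines without doxycycline (4 to 15). The 1 call for doxycycline in the ΔNP63α line became 0 with no background correction, with the most variable probe, with only the arrays compared and with trend and robust eBayes, and it was 0 to 0 without 1 array. The 5 calls between the lines with doxycycline became 2 with an offset of 16, 3 with probes above background on all 8 arrays, 3 with the most variable probe, 2 with only the arrays compared and 2 with trend and robust eBayes; without 1 array they were 1 to 5. For the related lists, the 2 calls in the ΔNP63α line became 1 with no background correction and 1 with only the arrays compared, and 1 to 3 without 1 array; the averaged call was 0 to 1 without 1 array; and the 7 between the lines with doxycycline became 4 with an offset of 16, 3 with only the arrays compared and 1 to 5 without 1 array. The cause was not tested, except that fewer arrays enter the fits without 1 array or with only the arrays compared. Replicate numbers are shared by the groups, but the labels do not say what they mark. Deviations of same-numbered arrays correlated at 0.0403 to 0.432 over 12385 genes. With the replicate number as a block, the 5 calls between the lines with doxycycline became 9, and for the related lists 2 became 5 in the ΔNP63α line, 1 became 3 for the averaged effect and 7 became 11 between the lines with doxycycline. Changes near 0 turned sign for single genes. In the empty-vector line MRPS12 read -0.036 with the mean of kept probes and -0.13 on the most variable probe, and MRPS18B -0.069 on the most variable probe. Without 1 array the changes in that line ranged from -0.070 to 0.26 for MRPS12, -0.11 to 0.073 for MRPS18C, -0.21 to 0.067 for MRPL3, -0.059 to 0.022 for MRPL32 and -0.27 to 0.045 for CHCHD1. In the ΔNP63α line MRPL53 read 0.0026 with centred arrays. Without 1 array the changes there ranged from -0.035 to 0.017 for MRPL53, -0.060 to 0.16 for MRPL28, -0.19 to 0.040 for MRPS12, -0.025 to 0.030 for MRPS7 and -0.0070 to 0.22 for MRPS18B. Between the uninduced lines MRPL1 ranged from -0.069 to 0.17 without 1 array.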

Other observations

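Some related genes outside the calls are described here, and they were picked after their values were seen. HTRA2 and OMA1 come from the list of chaperones and proteases, where 6 of 13 estimates in the empty-vector line were above 0, with a median of -0.02. The largest changes of other lists there went either way, such as PNPT1 (-0.33), FASTKD5 (-0.25) and DDIT4 (0.32). HTRA2, a protease of the space between the mitochondrial membranes, read 7.94 and 7.90 without doxycycline and 8.49 and 8.25 with it. The arrays did not overlap, and the change of 0.46 (SE 0.11) had an unadjusted p of 0.00153 and an adjusted p of 0.990 in limma; in the ΔNP63α line it was 0.03 (SE 0.11). OMA1, a protease of the inner membrane that acts under mitochondrial stress, changed by 0.37 (SE 0.16) in the empty-vector line and 0.58 (SE 0.16) in the ΔNP63α line, and averaged over the lines by 0.47 with a limma adjusted p of 0.0999. Its 2 empty-vector arrays without doxycycline differed, at 7.91 and 7.40. CHCHD1, a small-subunit protein whose symbol is not of the MRP form, changed by -0.11 in the empty-vector line and -0.16 in the ΔNP63α line (SE 0.12 in each). In the empty-vector line its arrays overlapped, at 8.16 and 8.02 without doxycycline and 7.82 and 8.13 with it.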
